A study of Mus musculus with 47 samples.

Results

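The genes for 10 enzymes named for removing acetyl groups, the histone deacetylases Hdac3 to Hdac11 and the sirtuin Sirt1, were followed through 12 macrophage RNA-seq libraries. Their rows were found by gene symbol, 10 of the 51912 genes in the tables from bone-marrow-derived macrophages (BMDMs). The study asked how ZMYND8, a chromatin reader, and the NF-κB subunit p65 shape inflammatory gene expression when macrophages are activated. Of the 47 samples in the series, 12 were RNA-seq libraries and 35 were not analysed here.

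The 6 BMDM libraries came from C57BL/6 mice carrying floxed Zmynd8 alleles. The WT group was Zmynd8 fl/fl without Cre. The Zmynd8 cKO group was Zmynd8 fl/fl with Lyz2-Cre, a recombinase driven in myeloid cells. Each genotype gave a non-treated library (NT, M0), a library after LPS at 100 ng/ml for 6 h (M1), and a library after IL-4 at 20 ng/ml for 6 h (M2). LPS is a bacterial cell wall component that activates macrophages through TLR4, and IL-4 is a cytokine that drives alternative activation. Each BMDM library was a pool of 3 biological replicates made before sequencing. Every condition was therefore a single library, and no difference had a replicate check. The other 6 libraries came from Raw264.7, a mouse macrophage-like cell line, edited with lentiviral CRISPR guides. In the Zmynd8 series these were Zmynd8 KO cells, the KO with WT Zmynd8 put back, and the KO with D/E-A, a ZMYND8 in which the acidic residues of its intrinsically disordered region were changed to alanine. In the p65 series these were p65 KO cells, the KO with WT p65, and the KO with p65 K122R, all labelled as LPS-treated. The column heading of the WT p65 library names no p65 KO in either table that holds it, so that this reference may have been unmodified cells. The study's text gives LPS for the WT Zmynd8 and D/E-A cells, the treatment of the Zmynd8 KO library is not stated in the sources used here, and no dose or time is given for the cell line.

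Histone deacetylases are grouped by sequence and mechanism. HDAC3 and HDAC8 are class I enzymes, and HDAC3 is the catalytic subunit of a nuclear receptor corepressor complex. HDAC4, HDAC5, HDAC7 and HDAC9 are class IIa enzymes, which bind MEF2 transcription factors and shuttle out of the nucleus when kinases phosphorylate them and 14-3-3 proteins bind. HDAC6, a cytoplasmic tubulin deacetylase, and HDAC10, a polyamine deacetylase, form class IIb. HDAC11 is the sole class IV enzyme. These are zinc enzymes, whereas SIRT1 is a class III enzyme that consumes NAD and can deacetylate p65.

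The libraries held between 22597408 and 28386612 counts in BMDMs and between 15127110 and 21042039 reads in Raw264.7. Of 6 macrophage markers, 6 reached 10 counts in the BMDM libraries and in the Zmynd8 series, and 5 in the p65 series. In the libraries labelled cKO, Zmynd8 itself was not clearly lower: 1842 counts against 2284 in NT, 2033 against 1967 under LPS, and 3944 against 3636 under IL-4. A count over a whole gene includes exons outside the deleted stretch and so checks nothing about the deletion. In Raw264.7, Zmynd8 had 485 reads in WT Zmynd8 and 497 in D/E-A, and the Zmynd8 KO value, which is not a whole number of reads, came to about 121. Rela, which encodes p65, had 765 reads in the p65 KO library, 1601 in WT p65 and 5850 in K122R. The LPS marker Nos2 went from 229 to 186078 counts with LPS in WT and from 96 to 173173 in cKO, and the IL-4 marker Arg1 from 20 to 42592 with IL-4 in WT and from 14 to 40252 in cKO. Some libraries stood apart by markers of other cells. All 6 neutrophil markers reached 10 counts in both IL-4 BMDM libraries, at a summed 357.3 (WT) and 482.5 (cKO) CPM, which is counts scaled to equal library totals, against 2.29 to 4.18 CPM in the NT and LPS libraries. Of 4 T cell markers, 1 reached 10 counts in each BMDM library, and their sum was 25.5 to 29.1 CPM in NT, 13.3 to 16.3 under LPS and 3.94 to 5.14 under IL-4, with Cd3e itself at 0 to 1 counts. The 5 dendritic cell markers summed to 0.664 to 1.64 CPM in NT, 10.9 to 13.9 under LPS and 5.47 to 5.53 under IL-4, and to 20.6 to 43.4 CPM in Raw264.7. The 3 Raw264.7 libraries of the Zmynd8 series held 4346 to 10240 CPM of the 6 neutrophil markers and 8.17% to 17.1% of reads on 2 rRNA genes. In the p65 series neutrophil markers summed to 0.18 to 0.319 CPM and the rRNA share was 0.228% to 0.636%. In the Zmynd8 series the libraries thus go against their label of a macrophage-like line alone, and the 2 Raw264.7 series were not compared with each other. Each was the sole library of its condition, so no result could be given without it.

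Promoters were read from RefSeq (GRCm38.p6, the mm10 assembly) for 3 members. Hdac4 and Hdac6 were 2 of the 3 that LPS lowered most in WT by log2 of (CPM + 1), and Hdac7 was raised. Without the added 1, Hdac11 fell more than Hdac6, to 0.239 of its NT level by CPM against 0.273. In GRCm38 the genes span chr1:91928779-92195699 (Hdac4), chrX:7930120-7947889 (Hdac6) and chr15:97792664-97844502 (Hdac7). The table held 12 windows for 8 of the 10 members, each 250 bases before to 50 bases after an annotated start, and none for Hdac3 or Hdac10. The 250 bases before the start are shown 5′ to 3′ on the gene strand, with capitals marking matches, on either strand and wholly within the bases shown, to GGGCGG, to GAGGAA, or to TTC and GAA with 4 bases of any kind between them. Hdac4 and Hdac6, which fell together under LPS, are set beside Hdac7, which rose. Each window lies on the minus strand, outside annotated exons, at chr1:92180342-92180591 for Hdac4, chrX:7947890-7948139 for Hdac6 and chr15:97831768-97832017 for one of 4 Hdac7 starts.
Hdac4: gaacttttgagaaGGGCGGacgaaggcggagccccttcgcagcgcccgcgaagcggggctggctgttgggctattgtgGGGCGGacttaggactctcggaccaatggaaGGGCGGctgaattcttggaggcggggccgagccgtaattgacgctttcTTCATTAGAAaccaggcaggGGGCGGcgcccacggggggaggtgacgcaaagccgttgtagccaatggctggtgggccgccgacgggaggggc
Hdac6: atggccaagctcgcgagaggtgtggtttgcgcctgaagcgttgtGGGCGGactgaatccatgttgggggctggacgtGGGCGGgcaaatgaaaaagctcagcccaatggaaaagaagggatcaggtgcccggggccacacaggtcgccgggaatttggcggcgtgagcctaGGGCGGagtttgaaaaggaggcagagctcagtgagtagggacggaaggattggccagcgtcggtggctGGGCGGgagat
Hdac7: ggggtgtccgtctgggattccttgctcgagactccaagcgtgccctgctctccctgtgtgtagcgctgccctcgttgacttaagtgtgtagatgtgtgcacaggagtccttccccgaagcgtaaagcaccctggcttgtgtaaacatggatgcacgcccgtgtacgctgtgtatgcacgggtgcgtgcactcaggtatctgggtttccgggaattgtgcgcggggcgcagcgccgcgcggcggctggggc
With the 50 bases after the start included, the Hdac4 window held GGGCGG, the GC box, 5 times, the last from -4 to 2 across the start, and the Hdac6 window also held it 5 times. The Hdac7 window shown held none of the motifs searched, while another of the 4 Hdac7 windows held GGGCGG and GAGGAA once each. GGGCGG was in 6 of the 12 member windows, 1 each of Hdac4, Hdac5, Hdac6, Hdac7, Hdac11 and Sirt1, and in 35.7% of all 32851 windows. TTC and GAA with 4 bases between them, a palindrome of the kind STAT factors bind, was in 1 member window, that of Hdac4, and in 6.95% of all windows. GAGGAA, an Ets core, was in 3 member windows, 2 of Hdac9 and 1 of Hdac7, and in 28.3% of all. CACGTG, an E-box, was in the Sirt1 and Hdac5 windows and in 7.15% of all. The kappaB consensus, TGACGTCA, and GAAA repeated after 2 bases of any kind were in 0 of the 12 member windows and in 8.46%, 1.79% and 3.44% of all windows. Both strands were searched, overlapping matches were counted, and these matches are descriptions of letters in the windows.

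Per length, on the transcript-based TPM scale, Hdac5 and Hdac3 were the most abundant members in BMDMs. Hdac5 was first in all 6 libraries, from 29.6 to 66.9 TPM with a median of 51.1. Hdac3 was second in all 6, from 22.9 to 34.7 TPM with a median of 29.9. Hdac11 was last in all 6, from 0.03 to 2.08 TPM. The other 7 members lay between, with medians from 3.69 TPM for Hdac8 to 7.81 TPM for Sirt1. Among these 7 the order changed from library to library, since Hdac8 and Hdac7 each ranged from rank 3 to rank 9. Neighbours among them could not be ordered beyond the spread over the libraries. By the median over the 6 libraries, Hdac4 was at rank 8 in TPM and at rank 3 in CPM, which does not correct for length. Its TPM rank in single libraries ranged from 6 to 9. The 10 members together made up 97.5 and 85.0 TPM in the WT and cKO LPS libraries, against 122.6 to 147.4 TPM in the other 4. TPM is a share of a library, and the direction of Hdac5 and Hdac3 under LPS in WT depended on the scaling, as given below.

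**Figure D1:**
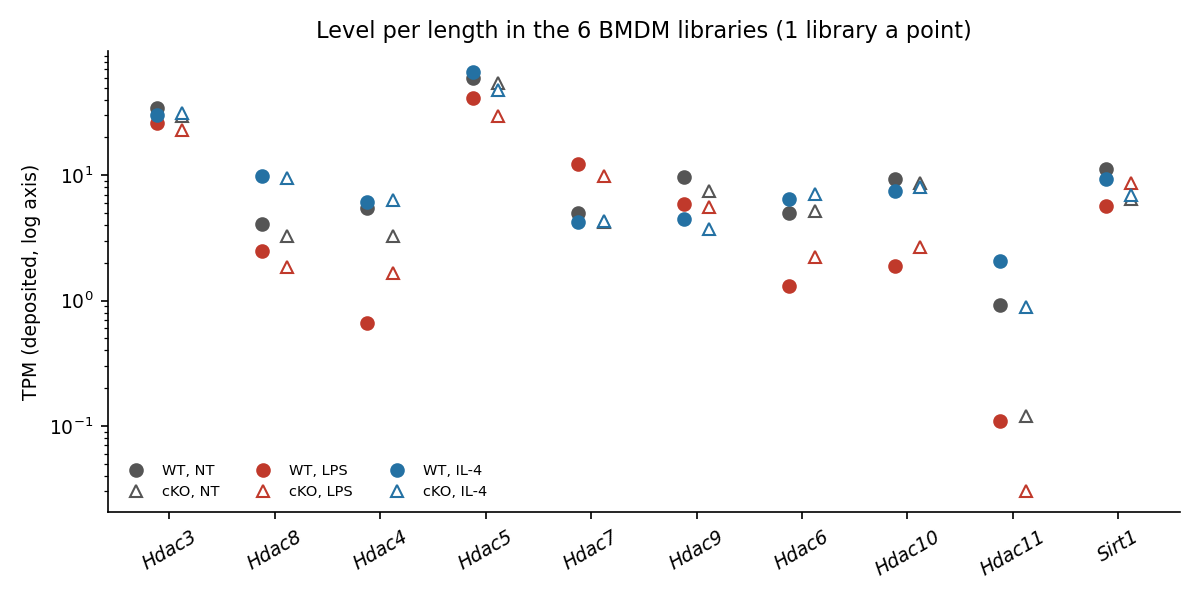
Deposited TPM of the 10 members in the 6 BMDM libraries on a log axis, 1 point a library, filled circles for WT and open triangles for Zmynd8 cKO, colours for NT, LPS and IL-4. Hdac5 and Hdac3 lie above the other members in every library, and Hdac11 lies below them.

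The first comparison asked what LPS did to these genes in WT cells. Hdac4, Hdac6 and Hdac10 fell several-fold and Hdac7 rose. Hdac11, on 22 and 5 counts, also fell, to 0.239 of its NT level by CPM. Dendritic cell markers rose with LPS, 2 of the 2 tested out of 5 in each genotype, and their part in the changes was not tested. All 10 members were called, 9 lower and 1 higher. A call required a fold change of at least 1.2 on (CPM + 1) and an adjusted p under 0.05 by the exact binomial test of the read counts, which compares 2 libraries and not the conditions. The same rule called 61.1% of the 12813 genes tested lower and 20.6% higher. The median log2 change over all these genes was -0.58, close to the members' median of -0.57. When libraries were scaled by the median ratio instead of by totals, the median of all genes moved up by 0.66, and 36.7% of genes were called lower and 37.8% higher. Under that scaling 4 members were called higher, Hdac3, Hdac5, Hdac7 and Hdac9, and 3 lower, Hdac4, Hdac6 and Hdac10. Hdac3, Hdac5, Hdac8 and Hdac9 changed direction between the scalings and are given below as values by both.

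Among class IIa members, Hdac4 was at 21.1 CPM in the WT NT library, 18.5 in cKO NT, 2.89 in WT LPS, 4.99 in cKO LPS, 25.9 in WT IL-4 and 27.8 in cKO IL-4. Both LPS libraries lay below the other 4. Its log2 change with LPS in WT was -2.50 (95% counting limits -2.78 to -2.22), an exact binomial adjusted p of 1.06e-86, and -1.90 under median-ratio scaling. Hdac7 was at 11.1 CPM in WT NT, 10.7 in cKO NT, 24.8 in WT LPS, 22.2 in cKO LPS, 10.1 in WT IL-4 and 7.88 in cKO IL-4. Both LPS libraries lay above the other 4. The Hdac7 log2 change with LPS in WT was 1.09 (limits 0.90 to 1.28), and 1.75 under median-ratio scaling. Hdac5 gave -0.40 by totals and 0.30 by median ratio, and Hdac9 gave -0.40 by totals and 0.28 by median ratio. By either scaling Hdac4 fell and Hdac7 rose.

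Both class IIb members fell more than 3-fold on the (CPM + 1) scale. Hdac6 was at 12.9 CPM in WT NT, 15.9 in cKO NT, 3.53 in WT LPS, 3.88 in cKO LPS, 16.7 in WT IL-4 and 17.6 in cKO IL-4. Its log2 change with LPS in WT was -1.62 (limits -1.90 to -1.34). Hdac10 was at 12.5 CPM in WT NT, 14.8 in cKO NT, 3.21 in WT LPS, 3.88 in cKO LPS, 10.1 in WT IL-4 and 12.2 in cKO IL-4. Its log2 change was -1.68 (limits -1.97 to -1.39). Both LPS libraries lay below the other 4 for each gene, and both falls remained under median-ratio scaling, at -1.01 for Hdac6 and -1.08 for Hdac10.

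The class I members moved less. Hdac3 was at 43.4 CPM in WT NT, 44.1 in cKO NT, 34.2 in WT LPS, 28.4 in cKO LPS, 37.4 in WT IL-4 and 39.4 in cKO IL-4, with a log2 change with LPS in WT of -0.34 by totals and 0.35 by median ratio. Hdac8 gave -0.52 by totals and 0.04 by median ratio. Hdac11 fell from 22 to 5 counts, a log2 change of -0.62 on the (CPM + 1) scale with limits -0.88 to -0.21, a call lost under median-ratio scaling at -0.40. Sirt1 fell from 25.5 to 14.2 CPM, a log2 change of -0.81 (limits -0.98 to -0.63), a call lost under median-ratio scaling at -0.14.

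In the cKO libraries LPS lowered 7 of the 9 members tested and raised 1, beside 58.9% of 12666 genes called lower and 23.8% higher. By median ratio the median of all genes moved up by 0.62, and the split became 37.7% lower and 39.5% higher. The log2 changes were -1.70 for Hdac4, -1.79 for Hdac6, -1.70 for Hdac10 and 0.98 for Hdac7, and these 4 kept their calls and directions by median ratio. Hdac8 changed by -0.93, and by -0.44 by median ratio. Hdac5 and Hdac9 changed by -0.83 and -0.74, calls that were lost by median ratio at -0.17 and -0.11. Hdac3 changed by -0.62 by totals and 0.03 by median ratio. Hdac11, with 6 and 1 counts, was below the filter of a mean of 10 counts. Sirt1 was not called, at 18.0 CPM in NT and 19.9 under LPS, a log2 change of 0.14 (limits -0.05 to 0.32), and it was called higher by median ratio at 0.76. The WT change was -0.81. The widest gaps between the responses in cKO and WT were 0.94 for Sirt1 and 0.80 for Hdac4. No test of these gaps was made, since each response rested on 1 library a condition.

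IL-4 gave another set of changes. The deposited IL-4 data held 2 entries that name no gene, against 431 for NT and LPS. A difference in processing and the IL-4 treatment cannot be told apart in these comparisons. In WT, Hdac8 and Hdac11 rose and Hdac9 fell, and in all 4 members were called higher and 2 lower. The rule called 38.6% of 13090 genes higher and 21.7% lower. By median ratio the median of all genes moved down by 0.16, the split became 29.0% higher and 29.4% lower, and 2 members were called higher and 5 lower. Hdac8 was at 4.92 CPM in WT NT, 4.74 in cKO NT, 3.13 in WT LPS, 2.01 in cKO LPS, and 11.5 in both IL-4 libraries. Both IL-4 libraries lay above the other 4. Its log2 change with IL-4 in WT was 1.08 (limits 0.82 to 1.34), and 0.94 by median ratio. Hdac9 was at 25.8 CPM in WT NT, 24.3 in cKO NT, 19.3 in WT LPS, 14.1 in cKO LPS, 11.8 in WT IL-4 and 11.5 in cKO IL-4. Both IL-4 libraries were the lowest of the 6. Its log2 change with IL-4 in WT was -1.07 (limits -1.25 to -0.89), and -1.22 by median ratio.

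Hdac11 had 22 counts in WT NT, 6 in cKO NT, 5 in WT LPS, 1 in cKO LPS, 100 in WT IL-4 and 40 in cKO IL-4. Both IL-4 libraries lay above the rest, and the WT log2 change was 1.30 (limits 0.92 to 1.64). Hdac4 rose by 0.29 and Hdac6 by 0.34 on the log2 scale, calls that were lost by median ratio at 0.13 and 0.19. Hdac10 fell by 0.28 on the log2 scale, and by 0.43 by median ratio. Hdac3, Hdac5, Hdac7 and Sirt1 were not called, with log2 changes of -0.21, 0.22, -0.13 and -0.26. The summed neutrophil markers, at 357.3 and 482.5 CPM in the IL-4 libraries, the summed T cell markers, lower there than in NT, and the summed dendritic cell markers, higher there than in NT, moved with these comparisons, and their part in the changes was not tested. Since the libraries were bulk, fewer cells of a type and less RNA per cell cannot be told apart.

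In cKO, IL-4 raised 3 members and lowered 3, beside 42.2% of 12966 genes called higher and 24.8% lower. By median ratio the median of all genes moved down by 0.18, the split became 34.3% higher and 32.9% lower, and 3 members were higher and 5 lower. Hdac8, Hdac9 and Hdac11 changed by 1.13, -1.01 and 1.00, where the WT changes were 1.08, -1.07 and 1.30. For Hdac11, without the added 1, IL-4 over NT was 5.77 by CPM and 7.42 by TPM in cKO, on 6 and 40 counts, and 4.20 by CPM and 2.24 by TPM in WT, so that the order of the genotypes depends on the scale. The difference between genotypes was not tested. Hdac4 rose by 0.57. Hdac5 fell by 0.32 on the log2 scale in cKO, where its WT change was 0.22, and Hdac7 fell by 0.40, where its WT change was -0.13. By TPM the direction of Hdac7 in cKO turned, with IL-4 over NT at 1.02, against 0.736 by CPM, and in WT it was 0.847 by TPM. Hdac6, Hdac10, Hdac3 and Sirt1 were not called, at 0.14, -0.26, -0.16 and -0.06.

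**Figure D2:**
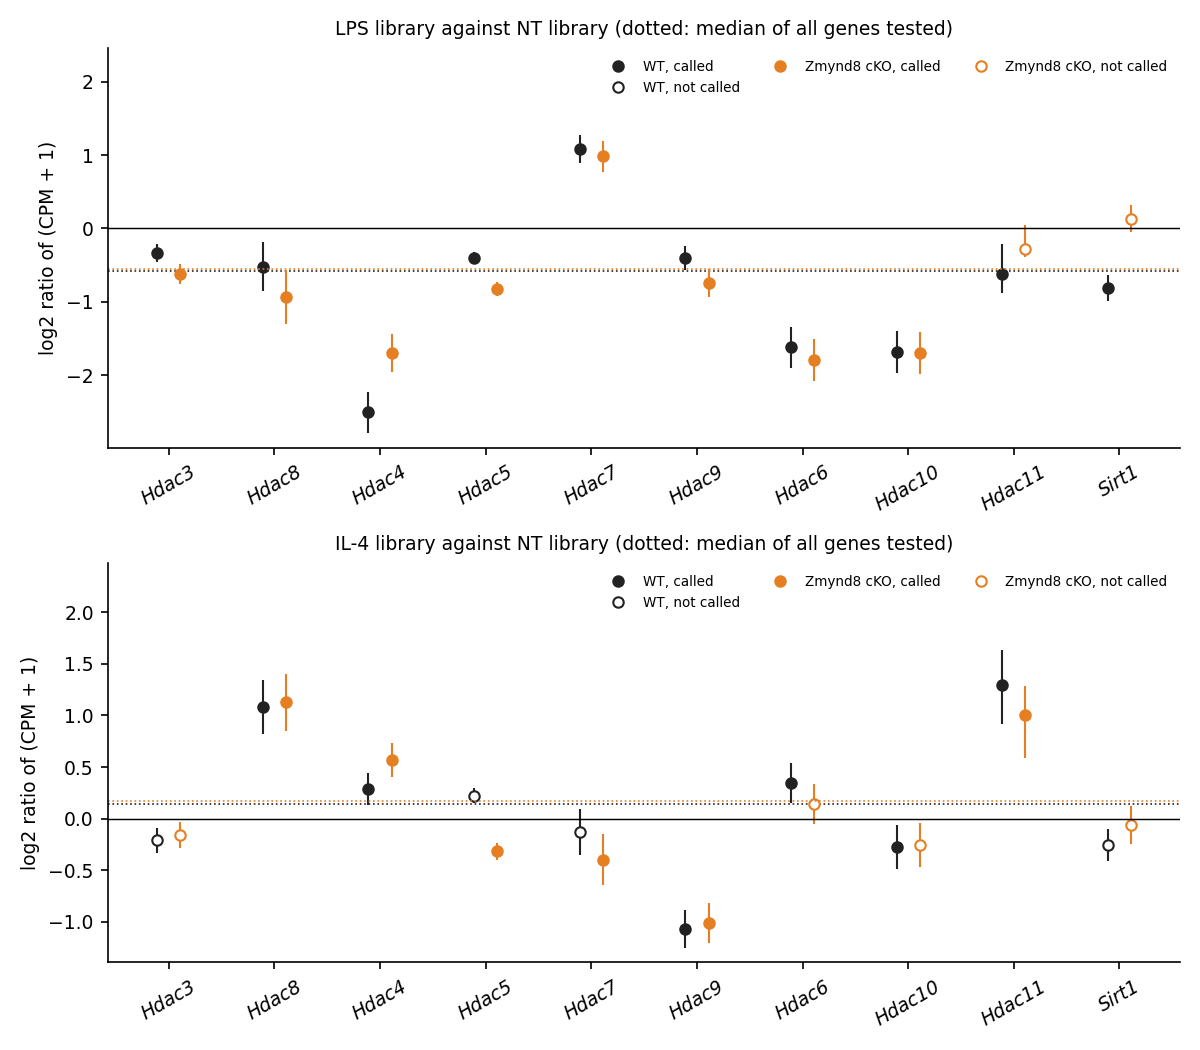
Log2 ratio of (CPM + 1) between a stimulated library and the NT library for each member, LPS above and IL-4 below, black for WT and orange for Zmynd8 cKO. Filled points were called, open points were not (the cKO Hdac11 point under LPS was below the filter on low counts), bars are 95% counting limits, and dotted lines are the medians of all genes tested, at -0.58 and -0.55 for LPS and 0.15 and 0.17 for IL-4. Hdac4, Hdac6 and Hdac10 lie below the dotted lines under LPS and Hdac7 lies above 0.

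The genotype comparison asked whether the libraries labelled Zmynd8 cKO differed from WT under the same treatment. On the (CPM + 1) scale no member reached 2-fold, and the widest log2 difference was -0.84, for Hdac11 under IL-4. That scale understates the change of low genes, and without the added 1 the ratio of cKO to WT for Hdac11 was 0.316 in NT and 0.435 under IL-4. In NT, Hdac6 was higher and Sirt1 and Hdac11 were lower, 3 of 10 members, beside 21.7% of 12463 genes called higher and 25.9% lower. Under LPS, Hdac4 and Sirt1 were higher and Hdac5, Hdac8 and Hdac9 lower, 5 of the 9 members tested, beside 17.1% of 12386 genes higher and 8.76% lower. Under IL-4, Hdac5, Hdac7, Hdac11 and Sirt1 were lower, 4 of 10, beside 13.8% of 13245 genes higher and 10.5% lower. When an edgeR exact test assumed a biological coefficient of variation of 0.2 between replicates, 0 members were called in each of the 3 comparisons. The share of all genes called by that test is not given for each comparison, so the 0 is not a result about the members. The summed neutrophil markers were also higher in the cKO than in the WT library under IL-4, with 4 of the 6 called. The summed macrophage markers were lower in cKO in each treatment. They came to 13770 against 17270 CPM in NT, 7669 against 11100 under LPS and 14270 against 18260 under IL-4. Single macrophage markers were called in both directions in each treatment. Under LPS 1 neutrophil and 1 T cell marker were called lower and 1 dendritic cell marker higher. The part of these markers in the genotype differences was not tested. The genotype and the stimulus comparisons shared libraries.

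Sirt1 was the one member called in all 3 treatments. It was at 25.5 CPM in WT and 18.0 in cKO in NT, at 14.2 and 19.9 under LPS, and at 21.2 and 17.2 under IL-4. It was lower in cKO in NT and IL-4 and higher in cKO under LPS. The log2 differences were -0.48 (limits -0.65 to -0.31, exact binomial adjusted p = 8.00e-08) in NT, 0.46 (limits 0.27 to 0.65, exact binomial adjusted p = 9.89e-06) under LPS and -0.29 (limits -0.46 to -0.12, exact binomial adjusted p = 0.0031) under IL-4. Hdac5 was level in NT, at 103.8 and 104.3 CPM, and lower in cKO under LPS, at 58.4 against 78.4 CPM, and under IL-4, at 83.5 against 121.4 CPM. The Hdac5 log2 differences were 0.01, -0.42 (limits -0.52 to -0.32) and -0.53 (limits -0.61 to -0.46).

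Hdac4 had 72 counts in WT and 117 in cKO under LPS, a log2 difference of 0.62 (limits 0.28 to 0.96), with -0.18 in NT and 0.10 under IL-4, which were not called. Hdac9 was lower in cKO under LPS at -0.43 (limits -0.62 to -0.23), and at -0.08 and -0.03 in NT and IL-4. By TPM its ratio of cKO to WT under LPS was 0.934, against 0.731 by CPM. Hdac8 had 78 counts in WT and 47 in cKO under LPS, a log2 difference of -0.46 (limits -0.84 to -0.07), and without the filter on low counts this call was lost. Hdac7 was lower in cKO under IL-4 at -0.32 (limits -0.56 to -0.09). Hdac11 was lower in cKO at 6 against 22 counts in NT and 40 against 100 under IL-4, log2 differences of -0.54 and -0.84 on the (CPM + 1) scale. Hdac6 was higher in cKO in NT at 0.28 (limits 0.07 to 0.48), just past the fold limit. Hdac10 was not called, at 0.23, 0.21 and 0.25 in NT, LPS and IL-4, and Hdac3 was not called, at 0.02, -0.26 and 0.07.

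Deposited TPM did not always give the same ratios as the counts, and the cause was not tested. Of 70 ratios between BMDM libraries, 25 differed by more than 1.2 times between TPM and CPM, and 8 fell on opposite sides of 1. In NT the TPM ratio of cKO over WT was below the CPM ratio for all 10 members. For LPS over NT in cKO, Hdac4 was 0.505 by TPM and 0.271 by CPM, and Hdac6 was 0.423 by TPM and 0.244 by CPM. For LPS over NT in WT, Hdac11 was 0.118 by TPM and 0.239 by CPM, where Hdac4 was 0.1204 by TPM and 0.137 by CPM. For IL-4 over NT in WT, Hdac11 was 2.24 by TPM and 4.20 by CPM. The widest gap was for Hdac11 in NT, on 6 and 22 counts, where cKO over WT was 0.129 by TPM and 0.316 by CPM. For Hdac4 in NT, cKO over WT was 0.597 by TPM and 0.876 by CPM, and under LPS it was 2.50 by TPM and 1.73 by CPM. For Hdac6 under LPS it was 1.69 by TPM and 1.10 by CPM. For Hdac7 under IL-4 it was 1.01 by TPM and 0.780 by CPM. For Sirt1 in NT it was 0.573 by TPM and 0.706 by CPM.

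**Figure D3:**
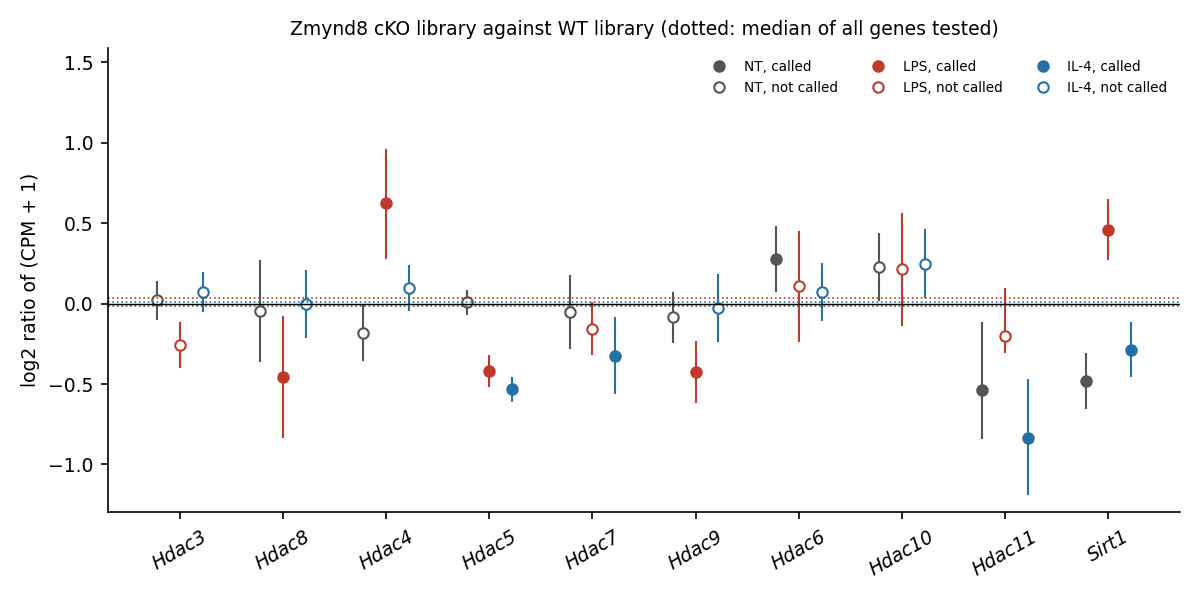
Log2 ratio of (CPM + 1) between the Zmynd8 cKO and WT libraries of the same treatment for each member, grey for NT, red for LPS and blue for IL-4. Filled points were called, bars are 95% counting limits and dotted lines are medians of all genes tested. Sirt1 lies above 0 under LPS and below 0 in NT and IL-4.

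In the Raw264.7 Zmynd8 series, a member was called when (deposited value + 1) differed 1.2-fold or more, with no p-value, among genes whose mean deposited value reached 1. The D/E-A library had more Hdac9, Sirt1 and Hdac6 than the WT Zmynd8 library and less Hdac4. These were 4 of the 9 members listed, beside 36.7% of 12770 genes called higher and 35.9% lower, and Hdac11 was not listed in that table. Hdac9 had 121 reads in WT Zmynd8, 139 in Zmynd8 KO and 464 in D/E-A. D/E-A was the highest of the 3, and lay 3.99-fold above WT Zmynd8 on the (value + 1) scale (log2 limits 1.71 to 2.30). Sirt1 had 280, 297 and 408 reads in the same order, a log2 difference in D/E-A of 0.61 (limits 0.39 to 0.83). Hdac4 had 265, 200 and 155 reads, a log2 difference in D/E-A of -0.70 (limits -0.997 to -0.413). Hdac6 had 41, 80 and 61 reads, a log2 difference in D/E-A of 0.63 (limits 0.04 to 1.22), a call lost when the reads were put to the exact binomial test. The other 5 members, Hdac3, Hdac5, Hdac7, Hdac8 and Hdac10, were not called, with log2 differences from -0.20 to 0.16.

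Against WT Zmynd8, the Zmynd8 KO library had 2 members higher and 3 lower, beside 33.8% of 21300 genes higher and 36.5% lower. Both contrasts shared the WT Zmynd8 library. Hdac3 rose by 0.36 (limits 0.19 to 0.54) on 457 and 639 reads, and Hdac6 rose by 0.83 (limits 0.28 to 1.40). Hdac4 fell by 0.52 on the log2 scale (limits -0.80 to -0.26). Hdac7, at 268 and 238 reads, and Hdac11, at 13 and 10 reads, were called lower by the fold rule at -0.29 and -0.46, and both were lost in the exact binomial test. Hdac9 and Sirt1 were not called, at 0.08 and -0.04. Neutrophil markers summed to 10240 CPM in WT Zmynd8, 6846 in Zmynd8 KO and 4346 in D/E-A, and macrophage markers to 3284, 4482 and 7482 CPM. The rRNA share was 17.1%, 13.8% and 8.17% in the same order. Their part in these differences was not tested.

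In the Raw264.7 p65 series, Hdac9 was higher in both other libraries than in WT p65. It had 240 reads in WT p65, 348 in p65 KO and 343 in K122R, log2 differences of 0.58 (limits 0.34 to 0.83) and 0.57 (limits 0.33 to 0.81), from contrasts that shared the WT p65 library. In K122R, 2 members were called higher and 5 lower, beside 30.8% of 19669 genes higher and 32.5% lower. When reads were divided by library totals, the median of all genes moved down by 0.14, and the split became 22.1% higher and 43.5% lower. Hdac5 had 182 reads in WT p65, 174 in p65 KO and 96 in K122R, where its log2 difference was -0.86 (limits -1.23 to -0.50). Hdac8 had 125, 100 and 79 reads, a K122R difference of -0.60 (limits -1.02 to -0.19). Hdac10 had 136, 140 and 92 reads, a K122R difference of -0.50 (limits -0.90 to -0.12). Hdac4 had 278, 221 and 214 reads, a K122R difference of -0.32 (limits -0.58 to -0.06). Hdac11 had 13, 6 and 2 reads, a K122R difference of -2.18 (limits -3.63 to -0.44) that rests on 2 reads. Hdac3, Hdac6 and Sirt1 were not called in K122R, at -0.08, -0.05 and 0.23.

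In p65 KO, 2 members were called higher and 3 lower, beside 26.3% of 19879 genes higher and 25.7% lower. Hdac4, Hdac8 and Hdac11 were lower by the fold rule, at -0.28, -0.27 and -0.96, and all 3 were lost in the exact binomial test. Hdac7 was at or near the floor throughout, with 0 reads in WT p65, 11 in p65 KO and 2 in K122R. A count of 0 allows up to 3 reads, or 0.192 CPM, in WT p65. Against that floor p65 KO was at least 3.79-fold higher, a bound that leaves out the counting error of the 11 reads, and the lower counting limit of the log2 ratio on the (value + 1) scale was 1.14. For K122R no fold is given, and its call by the fold rule rests on 2 reads. Hdac3, Hdac5, Hdac6, Hdac10 and Sirt1 were not called in p65 KO, at 0.01, -0.02, 0.11, 0.09 and -0.17.

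**Figure D4:**
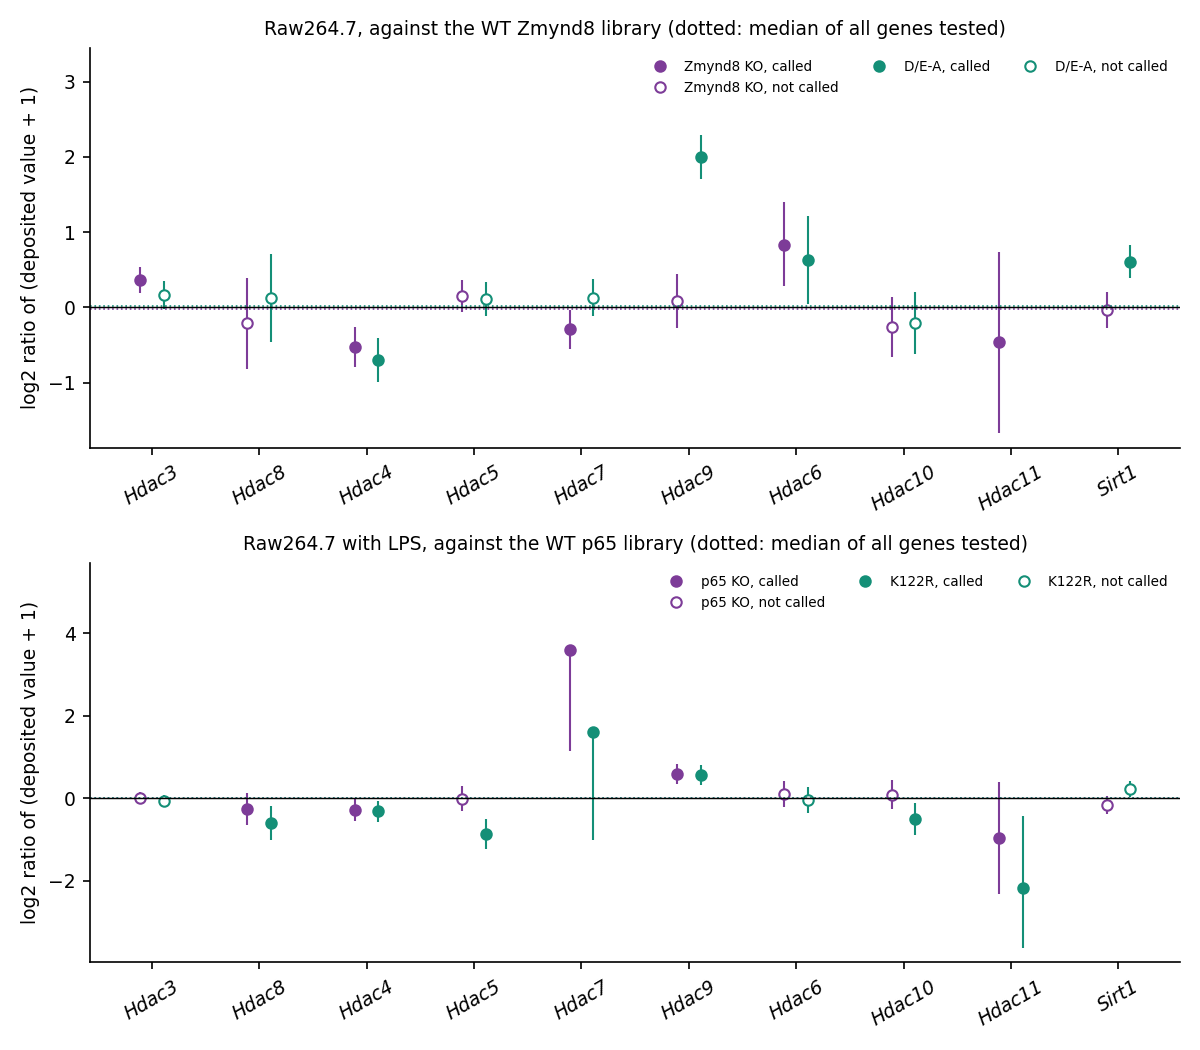
Log2 ratio of (deposited value + 1) for each member against the WT Zmynd8 library (above) and the WT p65 library (below). Purple points are the knockouts and green points D/E-A or K122R, filled where called, with 95% counting limits from the recovered reads and dotted lines at the medians of all genes tested. The green Hdac9 point of D/E-A, 3.99-fold above WT Zmynd8, is the highest in the upper panel, and the Hdac7 points below rest on 0 reads in WT p65.

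**Figure D5:**
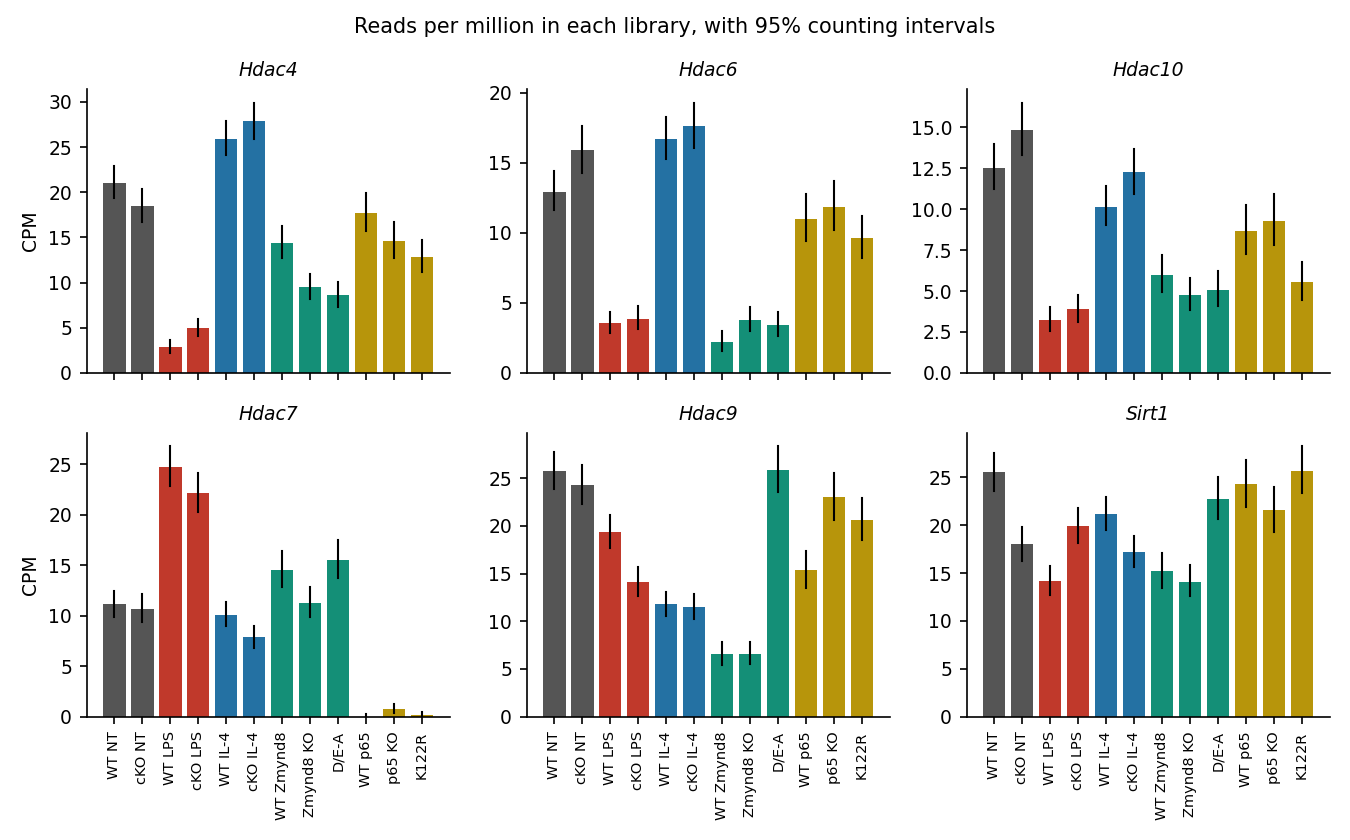
CPM of 6 members in each of the 12 libraries on linear axes from 0, with 95% Poisson counting intervals as vertical lines. Grey, red and blue bars are BMDMs with NT, LPS and IL-4, green bars the Raw264.7 Zmynd8 series and yellow bars the p65 series. Hdac4, Hdac6 and Hdac10 are lowest among BMDMs under LPS, and Hdac7 is near 0 in the p65 series.

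Genes whose products work with these enzymes were read from 4 lists. Of the 5 genes of the HDAC3 corepressor complex, all 5 were lower in WT after LPS, among them Ncor1 at -1.43 and Gps2 at -1.28, with a list median of -1.28 beside -0.58 for all genes, in a comparison that called 61.1% of all genes lower. By median ratio 4 of 5 were lower, beside 36.7% of all genes. In cKO 3 of 5 were lower, beside 58.9% of all genes, with a median of -0.36 beside -0.55. By median ratio 2 were lower and 3 higher, beside 37.7% and 39.5%, with Tbl1xr1 turning from -0.36 to 0.28. IL-4 raised 3 of 5 in WT, beside 38.6% of all genes, and 1 of 5 by median ratio, beside 29.0%. Ncor1 and Gps2 rose by 0.32 and 0.33, calls that were lost by median ratio at 0.15 and 0.17. In cKO IL-4 raised 4 of 5 and lowered 1, beside 42.2% and 24.8% of all genes, with Ncor1 at 1.10 and Gps2 at -0.36. By median ratio 2 were higher and 1 lower, beside 34.3% and 32.9%. In cKO against WT, 3 of 5 were lower and 1 higher in NT, beside 25.9% and 21.7% of all genes. Under LPS 2 of 5 were higher, beside 17.1%, and under IL-4 2 of 5 were lower, beside 10.5%. Ncor1 was lower in NT, at 1830 against 4025 counts and -0.91, and higher under LPS, at 1990 against 1404 counts and 0.58. In K122R 1 of 5 was lower, beside 32.5% of all genes, and in p65 KO 2 of 5, beside 25.7%, among them Ncor1 at -0.31. In D/E-A, 3 of 5 were higher and 1 lower, beside 36.7% and 35.9% of all genes, and in Zmynd8 KO 1 was higher and 1 lower, beside 33.8% and 36.5%. The D/E-A values were led by Tbl1x at 0.97 and Gps2 at -0.90.

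Of the 19 partners of class IIa enzymes, 17 could be tested under LPS in WT, with 13 lower and 1 higher and a median of -1.18, beside 61.1% of all genes lower and 20.6% higher. By median ratio 10 were lower and 5 higher, beside 36.7% and 37.8%. The falls were led by Mef2c at -3.88 and Mef2a at -2.93, both MEF2 factors that class IIa enzymes repress, and by the kinase gene Camk1 at -2.58. In cKO 11 of 17 were lower and 2 higher, beside 58.9% and 23.8% of all genes, led by Camk1 at -3.08. By median ratio 7 were lower and 7 higher, beside 37.7% and 39.5%. Under IL-4 in WT 6 of 18 were higher and 8 lower, beside 38.6% and 21.7% of all genes. By median ratio 3 were higher and 9 lower, beside 29.0% and 29.4%. The largest change was that of the 14-3-3 gene Ywhah, from 26599 to 7299 counts and -1.98. In cKO 6 of 18 were higher and 4 lower with IL-4, beside 42.2% and 24.8% of all genes, with Ywhah at -2.18. By median ratio 3 were higher and 7 lower, beside 34.3% and 32.9%. In cKO against WT, 10 of 17 were lower and 2 higher in NT, beside 25.9% and 21.7% of all genes. Under LPS 4 of 17 were higher and 1 lower, beside 17.1% and 8.76%, and under IL-4 6 of 18 were lower and 1 higher, beside 10.5% and 13.8%. Sik2, a kinase of class IIa enzymes, was lower in cKO in NT at -1.05 and higher under LPS at 0.64. Mef2c and Mef2a were higher in cKO under LPS, at 0.60 and 0.56. In D/E-A 12 of 18 were higher and 2 lower, beside 36.7% and 35.9% of all genes, led by Camk1d at 1.23. In Zmynd8 KO, which shared the WT Zmynd8 library, 11 of 18 were higher and 2 lower, beside 33.8% and 36.5% of all genes. In K122R 5 of 18 were higher and 6 lower, beside 30.8% and 32.5% of all genes. In p65 KO 1 was higher, Mef2c at 0.54, and 2 lower, beside 26.3% and 25.7%.

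Of the 10 genes around SIRT1 and NAD, 9 could be tested in BMDMs. Under LPS in WT 2 were higher and 5 lower, beside 20.6% and 61.1% of all genes. By median ratio 3 were higher and 3 lower, beside 37.8% and 36.7%. In cKO 2 were higher and 6 lower with LPS, beside 23.8% and 58.9%, or 3 and 3 by median ratio, beside 39.5% and 37.7%. Cd38, which encodes an NAD-consuming enzyme, went from 34 to 1920 counts in WT and from 7 to 2259 in cKO, and Parp1, another NAD consumer, changed by -2.47 in WT and -2.36 in cKO. Nampt, the rate-limiting enzyme of NAD salvage, rose with LPS in both genotypes, from 6303 to 16346 counts in WT, a log2 change of 1.44, and from 3301 to 17983 counts in cKO, a log2 change of 2.39. With IL-4, 3 of 9 were higher and 2 lower in WT, beside 38.6% and 21.7% of all genes. By median ratio 2 were higher and 3 lower, beside 29.0% and 29.4%. In cKO 1 was higher, Nampt at 1.15, and 1 lower, beside 42.2% and 24.8%. By median ratio 1 was higher and 2 lower, beside 34.3% and 32.9%. In cKO against WT, 1 of 9 was higher and 2 lower in NT, beside 21.7% and 25.9% of all genes. Under LPS 1 was higher and 0 lower, beside 17.1% and 8.76%. Under IL-4 1 was higher and 2 lower, beside 13.8% and 10.5%. Nampt was lower in cKO in NT at -0.72 and higher under IL-4 at 0.42, where Naprt was lower at -0.77. In D/E-A 3 of 9 were higher and 5 lower, beside 36.7% and 35.9% of all genes, and in Zmynd8 KO 4 were higher and 4 lower, beside 33.8% and 36.5%. The D/E-A values were led by Nmnat1 at -1.10, and Cd38 was higher at 1.02. In K122R 3 of 9 were higher and 5 lower, beside 30.8% and 32.5% of all genes. In p65 KO 0 were higher and 1 lower, beside 26.3% and 25.7%. Naprt rested on 20 reads in WT p65 against 1 in K122R and 2 in p65 KO.

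Of the 8 other deacetylases, 2 were higher and 5 lower under LPS in WT, beside 20.6% and 61.1% of all genes. By median ratio 3 were higher and 2 lower, beside 37.8% and 36.7%. Hdac1 and Hdac2, close class I relatives, went in opposite directions by either scaling. Hdac2 fell from 1140 to 226 counts in WT, -2.14, and from 1031 to 233 in cKO, -2.09. Hdac1 rose from 1569 to 3373 counts in WT, 1.16, and from 1416 to 2963 in cKO, 1.00. IL-4 in WT raised 1 and lowered 2 of the 8, beside 38.6% and 21.7% of all genes, with Sirt6 higher at 0.58, and in cKO it lowered 1, Sirt2 at -0.54, and raised 0, beside 24.8% and 42.2%. In cKO against WT 1 of 8 was higher in NT, beside 21.7% of all genes higher and 25.9% lower, and 1 of 8 was higher under IL-4, beside 13.8% and 10.5%. Under LPS the 8 were not called, with a list median of -0.11, beside 17.1% of all genes higher and 8.76% lower. In D/E-A 3 of 8 were higher, led by Sirt2 at 0.80, and 5 lower, beside 36.7% and 35.9% of all genes, and in Zmynd8 KO 4 were higher and 4 lower, beside 33.8% and 36.5%.

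The widest spread of log2(CPM + 1) over the 6 BMDM libraries belonged to Hdac4, at 2.89, and Hdac11, at 2.12. The genes whose levels most resembled Hdac4 were Lair1 (Pearson r = 0.9992 over 6 libraries), the gene of identifier ENSMUSG00000026276 (r = 0.9991) and Ufl1 (r = 0.999). The order among them carries little, since 2058 of 8568 genes had r over 0.95 with Hdac4. For Hdac11 they were Cd200r1 (r = 0.9952), Bcl2l11 (r = 0.991) and Fuk (r = 0.9897), and 130 of 8569 genes had r over 0.95. The libraries shared the NT, LPS and IL-4 pattern, and these values are descriptions.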

How the data were processed

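RNA-seq was described in 12 libraries, with 1 library a condition. For BMDMs, the authors deposited estimated counts and TPM per Ensembl gene, aligned with TopHat to the mm10 transcriptome by the study's methods. The submitters' notes also name CASAVA 1.4 and Bowtie 0.12.2 and the builds mm8 and mm10, with no role given. For Raw264.7, the authors deposited a normalised signal per gene, scaled within a table, whose low values were whole multiples of 1 read, and reads were recovered from it. 100% of values came out whole within 0.1 read in every column but that of Zmynd8 KO, where the Zmynd8 gene was the exception (99.996%). The D/E-A table lists no gene with under 21 reads in WT Zmynd8. Hdac11, with 13 reads in WT Zmynd8, is absent from that table, and the authors' rule for listing genes is not given. Strand use in counting is not given in the sources used here. Antisense partners of Hdac4, Hdac8, Hdac11 and Sirt1 held at most 2 counts a library, and reads of a gene and its antisense partner cannot be told apart. The heading of the WT p65 column does not mention the p65 KO that its label gives, in both p65 tables.

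BMDM counts were rounded, 431 entries that name no gene were dropped from the NT and LPS tables and 2 from the IL-4 table, and CPM used library totals. Log2 ratios had 1 added to each level, which understates the change of low genes. A gene entered the tests when its 2 libraries averaged 10 counts or more, or a deposited value of 1 or more in Raw264.7. BMDM libraries were compared with a two-sided exact binomial test and Benjamini-Hochberg adjustment over all genes tested. Limits on log2 ratios came from 95% Clopper-Pearson intervals and, like the floor of 3 reads, cover counting error only. Because 1 library stood for a condition, p-values compare libraries, not conditions. Alternatives changed the scaling (DESeq2 1.42.0 median ratio, edgeR 4.0.16 TMM), filter, pseudocount, fold, or test, and the code was tested on simulated data. Python 3.11.15, pandas 2.3.3, scipy 1.17.1 and R 4.3.3 were used.

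The members and gene lists were chosen with earlier results of these data known. Named list genes were, per list and comparison, up to 3 called genes with the largest change among those averaging 100 counts or more (10 in Raw264.7 values), and the resemblance rule asked for a mean of 100 counts and an SD of 0.3 over 6 libraries for the 2 widest members. The authors' fold changes, p-values and unlabelled gene lists, and 2 columns of per-sample values without a label, were not used. Some genes of the lists are not reported here by name.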

Additional observations from a re-analysis of the deposited data

Results flagged for a closer look

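Sirt1 was flagged because the same contrast, Zmynd8 cKO against WT, went in opposite directions under different treatments. The log2 difference was -0.48 in NT, 0.46 under LPS and -0.29 under IL-4. The difference between treatments was not tested, as each value rested on 1 library a group.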

How the results depend on the processing

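No replicates existed to leave out, and no paired analysis was possible because each group held 1 library. Doubted libraries could not be left out either, since each was the sole library of its condition. Of 73 counts of called members under alternatives, 51 stayed within 1.5 times of the reported count. Requiring a 2-fold change left 0 members in the cKO against WT comparisons in NT, LPS and IL-4, 4 (WT) and 3 (cKO) for LPS against NT, 3 (WT) and 2 (cKO) for IL-4 against NT, 1 in D/E-A, 0 in Zmynd8 KO, 2 in K122R and 1 in p65 KO. The same limit left 3.83%, 0.904% and 1.97% of all genes called in the cKO against WT comparisons in that order, 43.3% and 46.0% for LPS, 16.2% and 21.1% for IL-4, and 18.4%, 25.6%, 20.0% and 15.8% in the Raw264.7 comparisons. The edgeR exact test with an assumed coefficient of variation of 0.2 left 0 members in all 3 cKO against WT comparisons, 4 and 4 for LPS and 2 and 2 for IL-4 against NT. Over all genes it called 33 to 5635 genes a comparison, a range that gives no share beside each of these counts. TMM scaling left 6 members for LPS against NT in WT, beside 36.9% of all genes higher and 37.6% lower. In p65 KO it left 3, beside 27.7% and 23.6%. The exact binomial test on recovered reads left 3 in Zmynd8 KO and 2 in p65 KO, with no share of all genes given here. Under median-ratio scaling, log2 changes for LPS against NT in WT reversed to 0.28 for Hdac9, 0.30 for Hdac5, 0.35 for Hdac3 and 0.0431 for Hdac8, and in cKO to 0.0269 for Hdac3. Under TMM they reversed in WT to 0.25, 0.27, 0.33 and 0.0222 in the same order. These scalings raised the median of all genes by 0.57 to 0.66, by construction. Of 724 member fold changes under alternatives, 589 kept direction and call, 101 lost a call, 20 gained one, 9 reversed and 5 uncalled values changed sign. Hdac11 had 1 to 100 counts in BMDMs and Hdac7 0 to 11 reads in the p65 series, and their ratios have wide counting limits.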
